A study of Arabidopsis thaliana with 12 samples.

Results

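The comparison asks whether green light moved each transcript by a different amount in a BES1-RNAi line than in wild type. For every gene the light change, green minus dark, was taken in each genotype on the log2(FPKM + 1) scale, and the wild-type light change was subtracted from the BES1-RNAi light change. A positive difference therefore means a larger rise or a smaller fall in BES1-RNAi, and a negative one a smaller rise or a larger fall. The difference was computed for the 633 genes listed in the tables of both genotypes, out of 1731 genes listed in any table. The 444 genes listed for BES1-RNAi alone and the 654 listed for wild type alone were not analysed here.

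Transcripts were measured by RNA-seq in whole Arabidopsis thaliana seedlings aged 3 days that had grown without light. The 4 groups were BES1-RNAi seedlings lit for 1 h with continuous green light of 10 µmol m-2 s-1, BES1-RNAi seedlings kept in the dark, wild-type seedlings after the same green light, and wild-type seedlings kept in the dark, with 3 libraries each. The construct and promoter of the RNAi transgene and the number of lines remain not given in the sources used here, and BES1 and its relatives were not analysed here, so the silencing was not checked. The labels do not say that libraries of a group came from separate cultures, so a p-value stands for no more than the spread among these libraries, which may be technical.

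BES1 is a transcription factor that enters the nucleus when brassinosteroids, the plant's steroid hormones, inactivate the kinase BIN2, and it activates growth genes and represses other genes in dark-grown seedlings. Light acts through photoreceptors that remove PIF factors and stop the COP1/SPA ubiquitin ligase from degrading HY5, a bZIP factor that turns on genes of greening and pigment synthesis. RNAi lowers transcripts that match the construct, which can include close relatives of the named target.

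FPKM scale the fragments of a gene by transcript length and by the mapped fragments of the library. How many reads each library had is unknown, so no counting interval can be given. Within a group, Spearman correlations of libraries over the 633 genes, which are not independent replicates, ran from 0.984 to 0.994, and at most 1.58% of the values of a pair were equal, so every library was counted. Wild-type green replicate 2 correlated at 0.917 to 0.923 with the BES1-RNAi green libraries, against 0.879 to 0.890 for the other 2 wild-type green libraries. No gene of the seed storage and root hair lists was in the tables of both genotypes, so tissue content was not checked, and in whole seedlings fewer cells of a type and less RNA per cell cannot be told apart. The genes had been listed for a light difference in these same libraries by a filter not given in the sources used here, so the values describe these genes and not the rest of the genome.

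The light change differed between genotypes for 179 of the 633 genes, which is 28.3% (limma, two-sided, Benjamini-Hochberg adjusted p under 0.05 over all 633). It was higher in BES1-RNAi for 112 genes, 17.7%, and lower for 67 genes, 10.6%, and 454 genes did not pass. Without adjustment 251 genes had p under 0.05. The ranges of the light changes, over every pairing of a green with a dark library of 1 genotype, were apart for 168 genes, 26.5%, among them 147 of the 179. The difference of light change ran from -1.69 for ELIP1 to 2.69 for SAUR6, with a median size of 0.78 among the 179 genes and a median standard error of 0.21 over all genes. It reached at least 1 in size for 52 of the 179 genes, 33 of them higher and 19 lower.

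**Figure D1:**
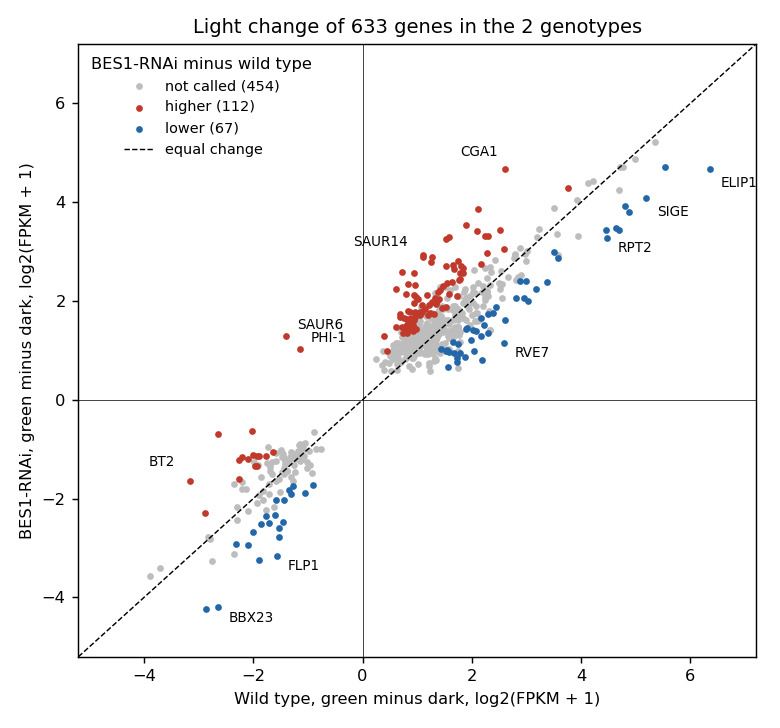
Light change of the 633 genes, BES1-RNAi on the vertical and wild type on the horizontal axis, both green minus dark as log2(FPKM + 1). Each point is a gene, coloured by the test of the difference (112 higher, 67 lower, 454 not called), and the dashed line marks equal change. Most points follow the line, and SAUR6 and PHI-1 are alone in the quadrant where the BES1-RNAi change is above 0 and the wild-type change below 0.

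Green light was higher than dark for 81.5% of the 633 genes in BES1-RNAi and 80.9% in wild type, and lower for 18.5% in BES1-RNAi and 18.8% in wild type (same test), shares that follow from how the genes were listed. The fitted change had the same sign in both genotypes for 631 of the 633 genes. Of these, 514 had a positive and 117 a negative change. The differing genes among these 633 mostly responded in both genotypes by unequal amounts. This cannot show how the genotypes differ in general, because only genes listed in the tables of both genotypes were tested. A light response in both genotypes thus follows largely from how the genes were listed. Genes listed for BES1-RNAi alone or for wild type alone were not tested. A stronger rise in BES1-RNAi was found for 95 genes and a weaker rise for 46, a stronger fall for 21 and a weaker fall for 15. The other 2 genes, SAUR6 and PHI-1, changed in opposite directions. The plot of the kinds of difference shows these 5 classes.

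A different light change can come with different dark levels, different green levels or both. Among the 179 genes the genotypes differed in the dark alone for 31, in green light alone for 55 and in both for 93 (same fit, adjusted p under 0.05, a description since the same libraries are used). Over all 633 genes the dark level was higher in BES1-RNAi for 48.7% and lower for 15.8%, and the green level was higher for 54.7% and lower for 16.0%. Of the 50 stronger rises with a difference in both conditions, 46 had the higher dark level and 49 the higher green level in BES1-RNAi. Of the 25 weaker rises with a difference in both, 20 had the higher dark level and 17 the higher green level in BES1-RNAi. All 10 weaker rises that differed in the dark alone had the higher dark level in BES1-RNAi, and all 11 that differed in green light alone had the lower green level there.

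**Figure D2:**
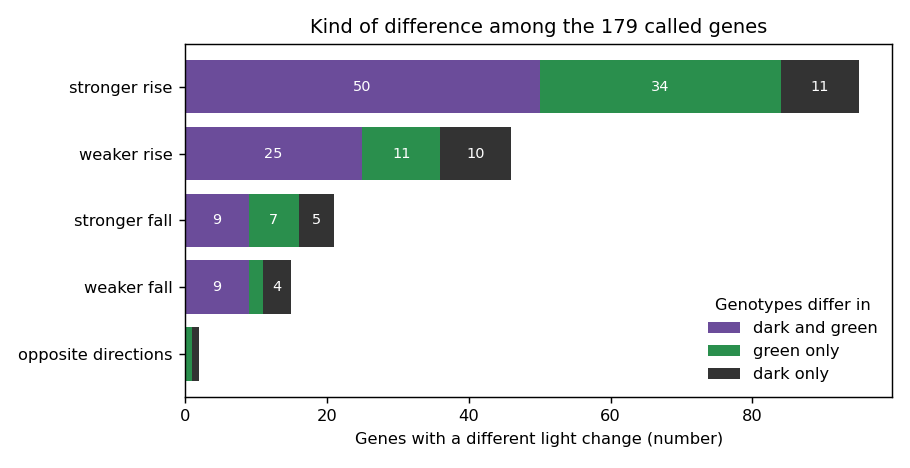
Number of genes in each class of different light change, split by the condition in which the BES1-RNAi and wild-type levels differed (dark and green, green only, dark only). Stronger rises in BES1-RNAi make up 95 of the 179 genes, and in 50 of them the genotypes differed in both conditions.

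The balance of higher and lower genes depended on how libraries were scaled. Over all 633 genes the median difference of light change was 0.13, with a median light change of 1.29 in BES1-RNAi and 1.14 in wild type. When each library was divided by the median ratio of its genes to their geometric means (factors of 1.95 to 2.18 in BES1-RNAi green, 0.736 to 0.789 in BES1-RNAi dark, 1.24 to 1.28 in wild-type green and 0.513 to 0.529 in wild-type dark libraries), the median difference became -0.03, and 60 genes were higher (9.48%) and 95 lower (15.0%), 155 in all (24.5%). Higher genes made up 38.7% of the calls after scaling, against 62.6% without it. Of the calls without scaling, 57 higher and 65 lower genes were called in the same direction after scaling, 55 higher and 2 lower genes were not called, and 0 were called in the opposite direction. Scaling added 3 higher and 30 lower genes. Because most listed genes rose with light, these factors also take out the typical light change of each genotype.

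The FPKM of ribosomal RNA differed between the groups and varied within them. The loci AT2G01020 and AT3G41979 had equal FPKM in all 12 libraries, so the pair was counted once. AT2G01020 was at 4888 to 6892 FPKM in BES1-RNAi green, 1324 to 3151 FPKM in BES1-RNAi dark, 19426 to 52909.9 FPKM in wild-type green and 4138 to 8038 FPKM in wild-type dark libraries. It held 9.7 to 12.6% of the FPKM summed over the listed genes in BES1-RNAi green, 6.1 to 13.1% in BES1-RNAi dark, 41.3 to 65.3% in wild-type green and 21.0 to 33.9% in wild-type dark libraries. Whether these values reflect the seedlings or the preparation of the libraries was not tested. FPKM are relative to a library total, and the part of this locus in the counts of higher and lower genes was not tested. In each of the 19 settings tried, scaling and each left-out library included, 52 genes were called higher and 34 lower. Genes named below that belong to these 86 are marked as called in every setting.

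**Figure D3:**
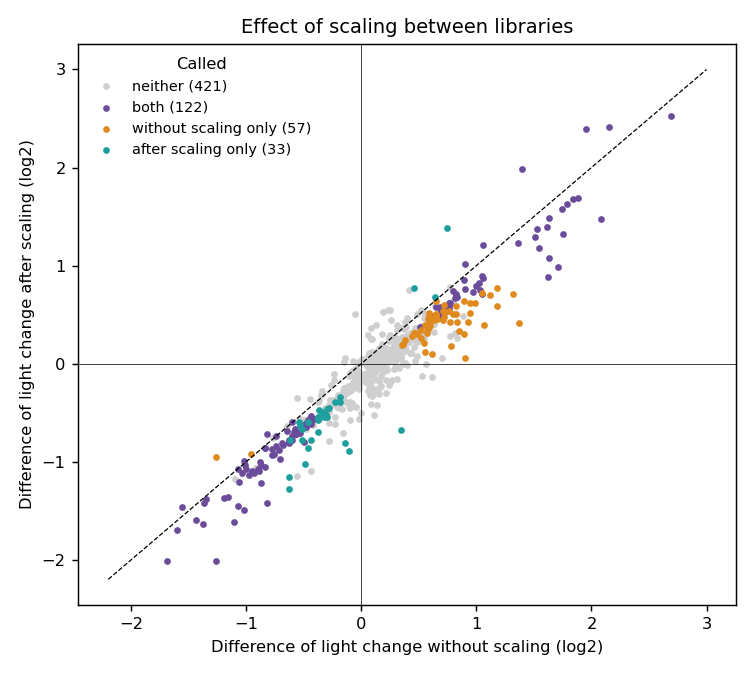
Difference of light change, BES1-RNAi minus wild type, of the 633 genes after scaling of libraries by the median ratio (vertical axis) and without it (horizontal axis), both log2. Colours give the calls (122 under both, 57 without scaling only, 33 after scaling only, 421 under neither), and the points lie mostly below the dashed line of equal values.

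SAUR6 (AT2G21210) had the largest difference. SAUR genes encode small auxin-induced proteins, many of which promote cell expansion. SAUR6 stood at 96.3, 109 and 121 FPKM in BES1-RNAi green libraries, at 43.8, 40.8 and 46.8 FPKM in BES1-RNAi dark, at 12.9, 17.1 and 21.0 FPKM in wild-type green and at 41.6, 47.4 and 48.4 FPKM in wild-type dark. The dark libraries of both genotypes overlapped, and in green light all BES1-RNAi libraries were above and all wild-type libraries below them. The light change was 1.29 ± 0.14 (SE) in BES1-RNAi and -1.40 ± 0.14 in wild type, and the difference was 2.69 ± 0.20 (limma, adjusted p = 3.24e-07). It was called in every setting. In the reference annotation SAUR6 overlaps AT2G21200 on the same strand, so reads of the pair cannot be told apart with certainty.

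PHI-1 (AT1G35140), of the phosphate-responsive 1 family, was the other gene with opposite light changes. Its FPKM were 2.39, 4.41 and 1.84 in BES1-RNAi green, 1.34, 0.40 and 0.92 in BES1-RNAi dark, 5.26, 1.95 and 2.52 in wild-type green and 6.94, 9.82 and 7.07 in wild-type dark libraries. Here the green libraries of both genotypes overlapped, and the dark libraries were apart. The difference was 2.15 ± 0.40 (SE; limma, adjusted p = 0.00142) and was called in every setting. Its size ran from 1.07 to 3.0 over the 18 other settings. All BES1-RNAi values were under 5 FPKM. SAUR6 thus differed in green light alone, and PHI-1 in the dark alone.

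SAUR14 (AT4G38840) rose in both genotypes from overlapping dark levels. Its FPKM were 127, 171 and 167 in BES1-RNAi green, 21.8, 19.0 and 18.9 in BES1-RNAi dark, 41.8, 56.4 and 45.5 in wild-type green and 24.4, 20.2 and 20.4 in wild-type dark libraries. The green libraries of the genotypes did not overlap, and the dark libraries did. The mean rose 7.80-fold in BES1-RNAi and 2.21-fold in wild type, and the difference of light change was 1.79 ± 0.19 (SE; limma, adjusted p = 7.69e-06), called in every setting. The upstream sequences of SAUR6 and SAUR14 are printed because these genes of 1 family had the largest green-only differences among the family members measured, a choice made after their values were seen. Capitals mark the E-box CANNTG, the core bound by bHLH factors and, in some forms, by BES1, searched on both strands. It is present in 55.3% of the 27443 promoters of protein-coding nuclear genes and in 60.7% of those of the listed genes, so its presence is common. The SAUR6 window is chr2:9086030-9086279 and the SAUR14 window chr4:18125560-18125809, both on the minus strand of RefSeq TAIR10.1, written 5′ to 3′ up to the base before the annotated gene start.

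SAUR6: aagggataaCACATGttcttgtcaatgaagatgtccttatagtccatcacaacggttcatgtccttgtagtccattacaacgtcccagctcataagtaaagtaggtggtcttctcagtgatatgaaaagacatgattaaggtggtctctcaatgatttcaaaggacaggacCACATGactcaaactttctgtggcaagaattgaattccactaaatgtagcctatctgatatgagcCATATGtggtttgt

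SAUR14: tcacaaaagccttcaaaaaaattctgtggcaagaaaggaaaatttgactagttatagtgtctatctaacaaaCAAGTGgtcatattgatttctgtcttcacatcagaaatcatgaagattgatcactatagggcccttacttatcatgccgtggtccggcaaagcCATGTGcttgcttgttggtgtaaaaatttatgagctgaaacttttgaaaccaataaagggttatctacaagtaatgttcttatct

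**Figure D4:**
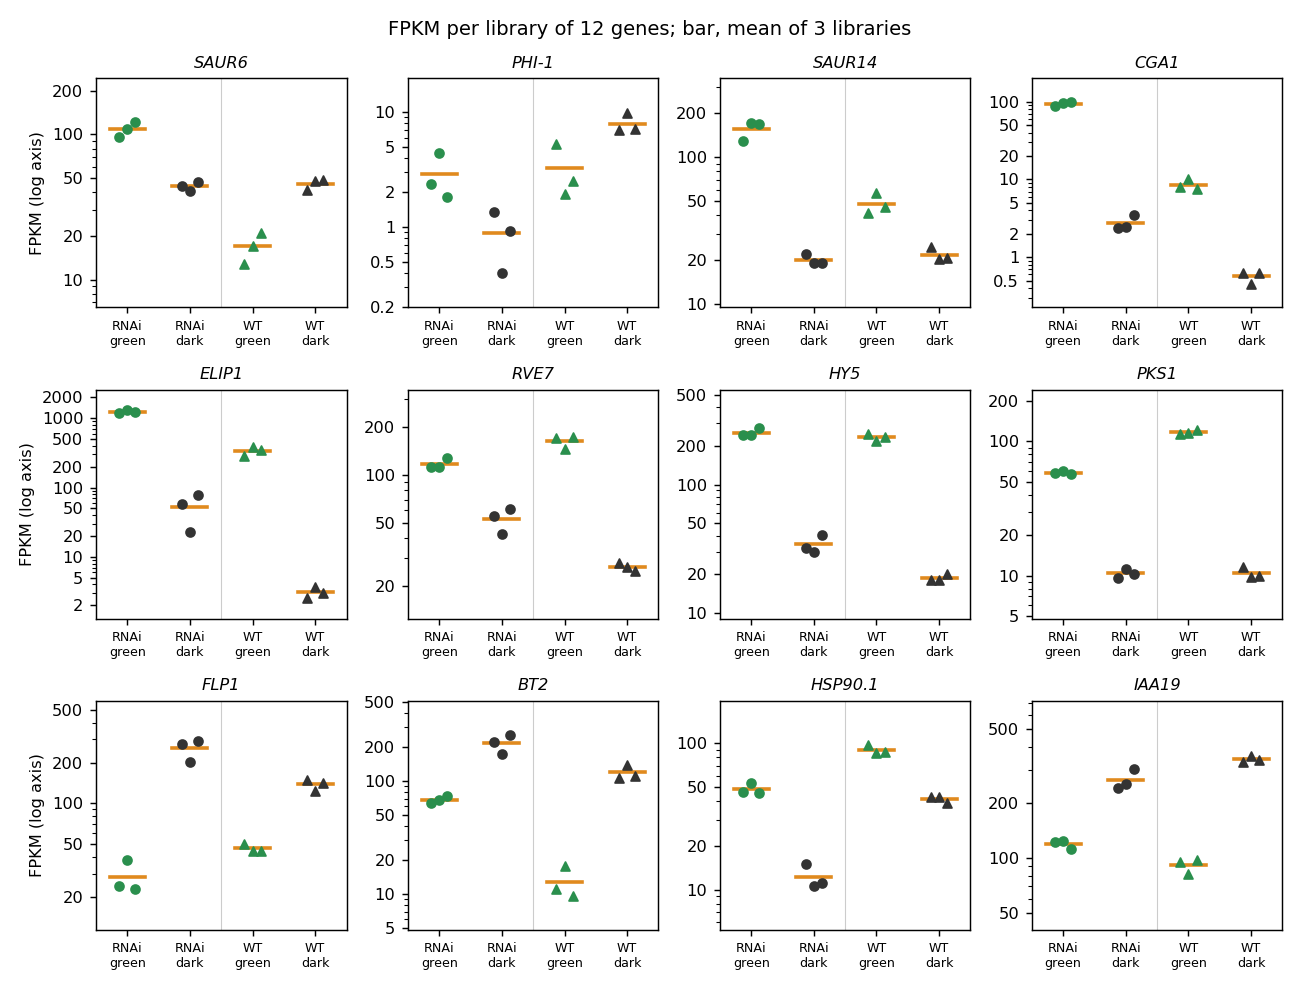
FPKM of 12 genes in each library on log axes, with BES1-RNAi (circles) left of wild type (triangles) and green light (green) left of dark (black). Bars are means of 3 libraries. SAUR6 is higher in green light in BES1-RNAi and lower in green light in wild type, and ELIP1 rises in both genotypes but from a BES1-RNAi dark mean of 53.1 FPKM, against 3.1 FPKM in wild-type dark.

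Among genes with a stronger rise, CGA1 (AT4G26150), a GATA transcription factor that promotes chloroplast development, was at 89.2, 95.6 and 99.9 FPKM in BES1-RNAi green, 2.34, 2.47 and 3.46 FPKM in BES1-RNAi dark, 7.93, 10.2 and 7.62 FPKM in wild-type green and 0.63, 0.45 and 0.62 FPKM in wild-type dark libraries. The genotypes did not overlap in either condition, and BES1-RNAi was higher in both. The difference was 2.08 ± 0.22 (SE; limma, adjusted p = 7.69e-06) and was called in every setting. Its size depended on the setting, from 1.37 to 2.41 over the 18 other settings. AT5G64850, annotated as a sorbin/SH3 domain protein, was at 113, 127 and 140.3 FPKM in BES1-RNAi green, 11.9, 12.4 and 12.5 FPKM in BES1-RNAi dark, 44.3, 49.7 and 45.8 FPKM in wild-type green and 14.5, 16.3 and 16.0 FPKM in wild-type dark libraries. Its dark values were slightly lower and its green values higher in BES1-RNAi, and the difference of 1.74 ± 0.14 (SE) had an adjusted p of 6.47e-07 (limma).

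Further large stronger rises included AT1G55960, annotated as a polyketide cyclase and lipid transport protein, with a difference of 1.84 ± 0.17 (SE). The non-coding RNA AT1G08477 had 1.88 ± 0.18, but overlaps 2 annotated genes, so its reads are uncertain. ASG4, a MYB-related protein, had 1.63 ± 0.28, AT5G42760, a leucine carboxyl methyltransferase, 1.75 ± 0.32, and the cytochrome P450 gene CYP96A12 1.63 ± 0.31 (limma, adjusted p up to 0.00156 in these 5 genes). These 5 genes and AT5G64850 were called in every setting. AT1G60590, a pectin lyase-like protein, had 1.71 ± 0.26, which was not called with a pseudocount of 0.1 (0.89, adjusted p = 0.132).

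The largest weaker rise was that of ELIP1. ELIP1, a thylakoid protein of the early light-induced family, was at 1190, 1298 and 1221 FPKM in BES1-RNAi green, 57.8, 23.2 and 78.4 FPKM in BES1-RNAi dark, 282, 387 and 344 FPKM in wild-type green and 2.57, 3.68 and 3.05 FPKM in wild-type dark libraries. BES1-RNAi was higher in both conditions without overlap, yet its rise was 23.3-fold against 109-fold in wild type. The difference of light change was -1.69 ± 0.40 (SE; limma, adjusted p = 0.00629) and was not called with a pseudocount of 5 (-0.84, adjusted p = 0.0766). RPT2, a phototropism protein that works with phototropin, was at 592, 577 and 553 FPKM in BES1-RNAi green, 56.6, 56.5 and 61.5 FPKM in BES1-RNAi dark, 390.1, 349.9 and 393 FPKM in wild-type green and 18.0, 16.1 and 14.3 FPKM in wild-type dark libraries. It too was higher in both conditions in BES1-RNAi, and the difference was -1.19 ± 0.13 (SE; limma, adjusted p = 1.38e-05), called in every setting.

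RVE7, a MYB-related clock-controlled factor, and PKS1, a phytochrome kinase substrate, showed lower green levels instead. RVE7 was at 113, 113 and 127 FPKM in BES1-RNAi green, 55.4, 42.5 and 61.3 FPKM in BES1-RNAi dark, 172, 146 and 173 FPKM in wild-type green and 27.9, 26.2 and 24.8 FPKM in wild-type dark libraries. BES1-RNAi was above wild type in the dark and below it in green light, with no overlap, and the difference was -1.44 ± 0.17 (SE; limma, adjusted p = 2.22e-05). PKS1 was at 57.9, 60.0 and 57.2 FPKM in BES1-RNAi green, 9.55, 11.3 and 10.3 FPKM in BES1-RNAi dark, 113, 116 and 122 FPKM in wild-type green and 11.6, 9.77 and 9.99 FPKM in wild-type dark libraries. Its dark values overlapped, its green values did not, and the difference was -0.98 ± 0.14 (SE; limma, adjusted p = 0.000135). Both genes were called in every setting, and PKS1 overlaps a gene on the other strand.

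AFR, an F-box protein of phytochrome A signalling, was at 42.3, 35.3 and 33.2 FPKM in BES1-RNAi green, 1.45, 4.44 and 2.23 FPKM in BES1-RNAi dark, 37.03, 24.7 and 37.6 FPKM in wild-type green and 0.00, 1.21 and 0.00 FPKM in wild-type dark libraries. Its green values overlapped, and its dark values were low but all higher in BES1-RNAi. The difference of -1.26 ± 0.43 (SE; limma, adjusted p = 0.0398) became -0.35 (adjusted p = 0.242) with a pseudocount of 5 and was not called without the trend (adjusted p = 0.0523). It was also not called without BES1-RNAi green replicate 2 or 3, BES1-RNAi dark replicate 2, wild-type green replicate 1 or 3, or wild-type dark replicate 1 or 3 (adjusted p from 0.0720 to 0.103). AT3G02910, of the AIG2-like family, differed by -1.16 ± 0.18 (SE; limma, adjusted p = 0.000302) and was called in every setting.

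A weaker rise on the log2 scale was often not a smaller gain in FPKM. For 18 of the 46 weaker rises, and for 20 of all 67 lower genes, the difference between the FPKM changes had the opposite sign to the log2 difference, against 3 of the 112 higher genes. CHLH, the magnesium chelatase subunit that starts chlorophyll synthesis proper, averaged 704 ± 11 FPKM in BES1-RNAi green, 363 ± 28.7 FPKM in BES1-RNAi dark, 158 ± 9.85 FPKM in wild-type green and 52.2 ± 5.70 FPKM in wild-type dark libraries (SD, n = 3 each). It gained 341 FPKM in BES1-RNAi and 106 FPKM in wild type, while the rise was 1.94-fold in BES1-RNAi and 3.03-fold in wild type (difference -0.63 ± 0.14 SE; limma, adjusted p = 0.00435). CH1, chlorophyllide a oxygenase, gained 109 FPKM in BES1-RNAi and 52.9 FPKM in wild type, with a log2 difference of -0.55 ± 0.13 (SE; limma, adjusted p = 0.00628). PKS1 and RVE7 had a smaller rise on both scales, since PKS1 gained 48.0 FPKM in BES1-RNAi and 107 FPKM in wild type, and RVE7 64.5 FPKM in BES1-RNAi and 137 FPKM in wild type. CHLH and CH1 were called in every setting.

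The G-box CACGTG, a motif bound by HY5, PIF factors and BES1, was searched on both strands in the 250 bases before each gene start. It was found in 30.4% of the promoters of genes with a weaker rise (14 of 46), in 15.1% of those with a stronger rise (14 of 93), in 6.67% of those with a weaker fall (1 of 15) and in 0 of the 21 with a stronger fall, against 12.8% of the 615 promoters of protein-coding genes in both tables and 6.49% of all 27443 promoters. CGTGTG or CGTGCG, the BRRE forms searched for BZR-type factors, was found in 15.2% of the weaker rises (7 of 46). The share was 9.68% of the stronger rises (9 of 93), 4.76% of the stronger falls (1 of 21) and 6.67% of the weaker falls (1 of 15). It was 9.27% of the genes in both tables and 6.71% of all promoters. In these 4 classes every match was CGTGTG, and CGTGCG was found in 0 promoters. The 615 promoters hold rising and falling genes together, and the share among all listed rising genes was not computed. These shares are descriptions, and a match is not shown to be bound. The 3 windows printed belong to the weaker-rise genes with a G-box and the lowest p, chosen after their values were seen. Capitals mark the G-box, which is also the only E-box in each window. GOLS3, galactinol synthase, is at chr1:3019389-3019638 on the plus strand, HCF107, a protein needed for photosystem II, at chr3:5812781-5813030 on the minus strand, and CCA1, a MYB factor of the circadian clock, at chr2:19245341-19245590 on the plus strand, all in RefSeq TAIR10.1 and written 5′ to 3′.

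GOLS3: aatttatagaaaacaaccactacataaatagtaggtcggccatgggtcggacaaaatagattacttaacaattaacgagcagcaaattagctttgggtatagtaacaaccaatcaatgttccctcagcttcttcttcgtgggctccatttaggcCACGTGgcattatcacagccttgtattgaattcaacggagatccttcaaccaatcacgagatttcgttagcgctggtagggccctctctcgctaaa

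HCF107: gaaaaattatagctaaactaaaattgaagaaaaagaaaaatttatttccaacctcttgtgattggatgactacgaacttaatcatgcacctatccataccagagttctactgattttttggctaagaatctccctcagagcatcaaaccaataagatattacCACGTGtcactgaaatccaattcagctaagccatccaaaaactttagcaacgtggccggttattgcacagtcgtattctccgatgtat

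CCA1: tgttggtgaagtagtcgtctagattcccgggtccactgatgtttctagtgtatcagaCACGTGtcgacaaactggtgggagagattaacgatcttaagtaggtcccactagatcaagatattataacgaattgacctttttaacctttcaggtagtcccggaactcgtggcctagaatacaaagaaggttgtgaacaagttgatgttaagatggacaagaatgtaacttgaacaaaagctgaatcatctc

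The genes with these windows did not share a pattern of levels. GOLS3 was at 16.5, 18.6 and 18.1 FPKM in BES1-RNAi green, 3.43, 3.96 and 3.76 FPKM in BES1-RNAi dark, 82.0, 55.5 and 66.4 FPKM in wild-type green and 7.11, 7.48 and 7.47 FPKM in wild-type dark libraries, so BES1-RNAi was lower throughout. HCF107 averaged 153 ± 7.57 FPKM in BES1-RNAi green, 70.2 ± 5.46 FPKM in BES1-RNAi dark, 57.6 ± 2.3 FPKM in wild-type green and 16.4 ± 0.816 FPKM in wild-type dark libraries (SD, n = 3 each), so BES1-RNAi was higher in both conditions. The differences of light change were -1.04 ± 0.19 for GOLS3, -0.63 ± 0.12 for HCF107 and -0.60 ± 0.14 for CCA1 (SE; limma, adjusted p from 0.00142 to 0.00567), and all 3 were called in every setting.

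Genes with a stronger fall in BES1-RNAi included FLP1, a flowering-promoting factor-like gene. It was at 24.2, 38.0 and 22.9 FPKM in BES1-RNAi green, 278, 202 and 291 FPKM in BES1-RNAi dark, 50.0, 44.4 and 44.3 FPKM in wild-type green and 149, 124 and 142 FPKM in wild-type dark libraries. BES1-RNAi was above wild type in the dark and below it in green light, without overlap. The difference was -1.60 ± 0.23 (SE; limma, adjusted p = 0.000192), called in every setting. BBX23, a B-box factor that promotes photomorphogenesis with HY5, averaged 1.25 ± 0.0666 FPKM in BES1-RNAi green, 40.3 ± 2.1 FPKM in BES1-RNAi dark, 0.51 ± 0.052 FPKM in wild-type green and 8.81 ± 3.34 FPKM in wild-type dark libraries (SD, n = 3 each). Its difference was -1.56 ± 0.28 (SE; limma, adjusted p = 0.00108), and ran from -1.8 to -1.11 over the 18 other settings. BES1-RNAi was higher in both conditions.

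AT5G57760, an uncharacterized protein, had a difference of -1.37 ± 0.16 (SE), the zinc finger gene AT5G44260 -1.35 ± 0.24, and FHY1, which carries phytochrome A into the nucleus, -0.78 ± 0.15 (limma, adjusted p from 2.22e-05 to 0.00165). These 3 genes and BBX23 were called in every setting. FHY1 was at 17.2, 16.1 and 18.1 FPKM in BES1-RNAi green, 101, 97.0 and 106 FPKM in BES1-RNAi dark, 18.7, 18.1 and 22.3 FPKM in wild-type green and 75.2, 61.1 and 65.2 FPKM in wild-type dark libraries. Its green values overlapped, and its dark values were all higher in BES1-RNAi. BEE3, a bHLH gene induced by brassinosteroid, had a difference of -1.26 ± 0.38 (SE; limma, adjusted p = 0.0222), which was not called after scaling (-0.95, adjusted p = 0.0618). Without wild-type dark replicate 1, wild-type green replicate 3 or BES1-RNAi green replicate 2 BEE3 was not called either (adjusted p from 0.0514 to 0.061). FHY1, CH1 and HCF107 lie outside the rule for named genes and were chosen after their values were seen.

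Among the weaker falls, BT2, a BTB and TAZ domain protein that sugar and nitrate regulate, was at 63.9, 67.6 and 73.7 FPKM in BES1-RNAi green, 222, 173 and 258 FPKM in BES1-RNAi dark, 11.02, 17.61 and 9.70 FPKM in wild-type green and 108, 139.5 and 112 FPKM in wild-type dark libraries. BES1-RNAi was higher in both conditions, and the mean kept 0.314 of its dark value in BES1-RNAi and 0.107 in wild type (difference 1.53 ± 0.25 SE; limma, adjusted p = 0.000571). AT5G38710, of the methylenetetrahydrofolate reductase family, was at 0.71, 1.36 and 1.14 FPKM in BES1-RNAi green, 2.33, 2.15 and 2.55 FPKM in BES1-RNAi dark, 4.21, 2.36 and 3.61 FPKM in wild-type green and 22.3, 29.2 and 27.3 FPKM in wild-type dark libraries. BES1-RNAi was lower in both conditions, and the difference was 1.95 ± 0.26 (SE; limma, adjusted p = 9.45e-05). AT2G04500, a C1 domain protein, had a difference of 1.4 ± 0.20 (SE; limma, adjusted p = 0.000182) from the same pattern of low BES1-RNAi dark values, between 1.11 and 1.75 FPKM against 9.67 to 10.5 FPKM in wild-type dark. All 3 genes were called in every setting.

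**Figure D5:**
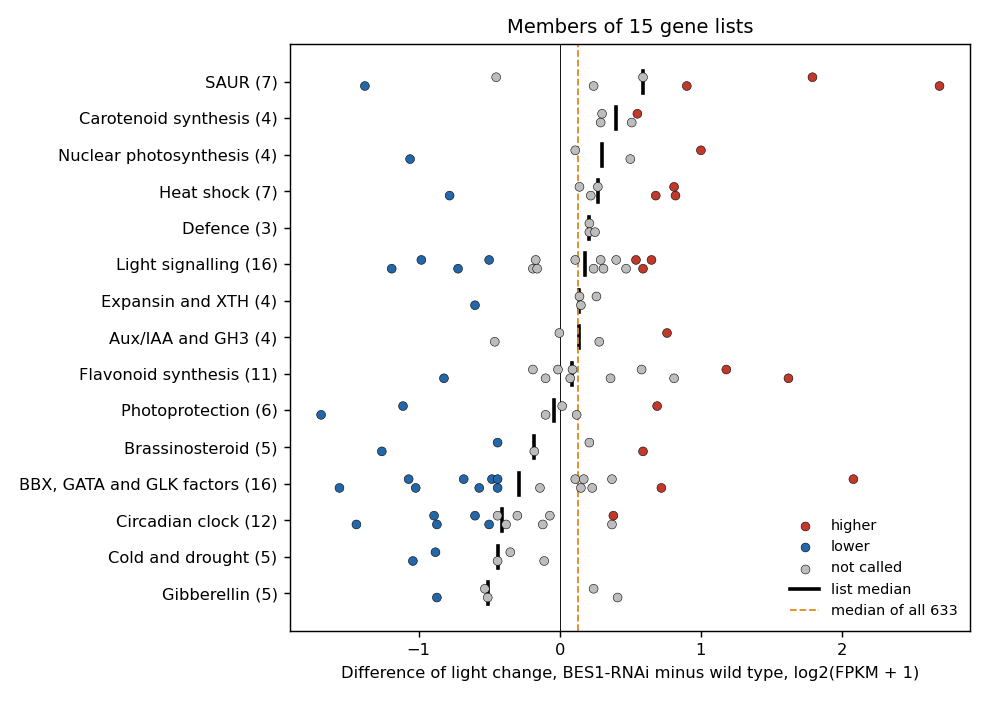
Difference of light change, BES1-RNAi minus wild type, of the members of 15 gene lists with at least 3 measured genes (number in brackets), on the log2 scale. Points are genes coloured by call, black bars are list medians and the dashed line is the median of all 633 genes, 0.13. The SAUR list has its median at 0.59 and the clock list at -0.41, and both lists hold genes on each side of 0.

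The gene lists were read against all 633 genes, of which 17.7% were higher and 10.6% lower with a median difference of 0.13 (60 and 95 genes and -0.03 after scaling). In the list of photoreceptors and light signalling, 3 of 16 measured genes were higher, 4 lower and 9 not called, with a median of 0.18 (0 higher, 5 lower and 0.00 after scaling). The 4 lower genes were RPT2, PKS1, HY5 and its homologue HYH. HY5 was at 244, 241 and 276 FPKM in BES1-RNAi green, 32.02, 29.7 and 40.6 FPKM in BES1-RNAi dark, 249.7, 219 and 236 FPKM in wild-type green and 18.0, 18.1 and 19.9 FPKM in wild-type dark libraries. The green values overlapped and the dark values were all higher in BES1-RNAi, and the difference was -0.72 ± 0.16 (SE; limma, adjusted p = 0.00345), called in every setting. The 3 higher genes were RUP2, a repressor of UV-B signalling, at 0.54, and the shade-response homeobox genes HB-2 and HB4 at 0.59 and 0.65 (adjusted p from 0.0255 to 0.0491), none of which was called after scaling.

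Of 16 measured BBX, GATA and GLK factors, 2 were higher, 8 lower and 6 not called, with a median of -0.29 (2 higher, 9 lower and -0.58 after scaling). The lower genes were BBX23, BBX30, BBX25, BBX17, BBX24, GLK2, BBX2 and GATA2, with differences from -1.56 to -0.44. These calls concern the light change and not the level. Of the 16 genes, 10 had a higher and 1 a lower dark level in BES1-RNAi, and 10 a higher and 2 a lower green level (same fit). BBX25 averaged 76.8 ± 6.89 FPKM in BES1-RNAi green, 6.22 ± 0.915 FPKM in BES1-RNAi dark, 45.3 ± 6.72 FPKM in wild-type green and 1.11 ± 0.356 FPKM in wild-type dark libraries (SD, n = 3 each), a difference of -1.02 ± 0.22 (SE; limma, adjusted p = 0.00319) that was not called with a pseudocount of 5 (-0.17, adjusted p = 0.441). GLK2, which activates photosynthesis genes, differed by -0.48 ± 0.11 (SE; limma, adjusted p = 0.00567). GATA2 differed by -0.44 ± 0.15 (SE; limma, adjusted p = 0.0354) and was not called without the trend (adjusted p = 0.0569). It was also not called without wild-type green replicate 1 or 3, wild-type dark replicate 2 or 3, or replicate 1 or 2 of BES1-RNAi green or dark (adjusted p from 0.0590 to 0.0943). The higher genes were CGA1 and BBX19, at 2.08 and 0.72, so CGA1 and GLK2, both regulators of greening, were on opposite sides. BBX19, BBX23, BBX24, GLK2 and CGA1 were called in every setting.

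In the circadian clock list, 1 of 12 measured genes was higher, 5 lower and 6 not called, with a median of -0.41 (0 higher, 8 lower and -0.61 after scaling). Lower were RVE7 (-1.44), ELF4 (-0.89), LNK3 (-0.87), CCA1 (-0.60) and RVE1 (-0.50). As for levels, 9 of the 12 genes were higher and 2 lower in BES1-RNAi in the dark, and 6 higher and 2 lower in green light (same fit). CCA1 averaged 227 ± 20.3 FPKM in BES1-RNAi green, 42.1 ± 2.44 FPKM in BES1-RNAi dark, 149.8 ± 12.4 FPKM in wild-type green and 17.8 ± 1.6 FPKM in wild-type dark libraries (SD, n = 3 each). LNK3 had an adjusted p of 0.0107 (limma) and was called in every setting. LHY, the closest relative of CCA1, had a difference of -0.07 ± 0.11 (SE; adjusted p = 0.700). RVE8, the higher gene, was at 0.38 with an adjusted p of 0.050 (rounded), and was not called after scaling. ASG4, whose product is annotated as for RVE8 (homeodomain-like superfamily protein), was not matched to this list. It was higher at 1.63 (limma, adjusted p = 0.000686) and was called in every setting, and the list counts and median leave it out.

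Genes of the chloroplast pointed both ways. Of 4 nuclear photosynthesis genes, LHCB7 was higher at 1.00 ± 0.26 (SE; limma, adjusted p = 0.00956), LHCB2.2 lower at -1.06 ± 0.27 (adjusted p = 0.0103), and LHCB4.3 and RBCS1B were not called, with a list median of 0.30 (the same calls and 0.14 after scaling). LHCB2.2 was at 684, 719 and 629.8 FPKM in BES1-RNAi green, 369.8, 249 and 431 FPKM in BES1-RNAi dark, 206, 340.4 and 208 FPKM in wild-type green and 53.7, 57.0 and 65.8 FPKM in wild-type dark libraries. BES1-RNAi was higher in both conditions, and reads of LHCB2 copies may not be told apart. Of 6 photoprotection genes, VTC2, an enzyme of vitamin C synthesis, was higher at 0.69 ± 0.15 (adjusted p = 0.00303), ELIP1 and the plastid sigma factor SIGE were lower, and 3 were not called, with a median of -0.04 (-0.26 after scaling). SIGE differed by -1.11 ± 0.22 (SE; limma, adjusted p = 0.00178), and by -0.22 (adjusted p = 0.248) with a pseudocount of 5. ELIP2, by contrast with ELIP1, differed by -0.10 ± 0.26 (adjusted p = 0.813), although the difference between these genes was not tested. LHCB7, LHCB2.2 and VTC2 were called in every setting.

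Of the chlorophyll synthesis genes measured, CHLH was lower and GUN4, its activator, was not called (-0.18, adjusted p = 0.395). Of 4 carotenoid genes, BCH1, a beta-carotene hydroxylase, was higher at 0.55 ± 0.15 (SE; limma, adjusted p = 0.0130) but not after scaling (0.39, adjusted p = 0.0717), and BCH2, ABA1 and PSY were not called. PSY, phytoene synthase, differed by 0.29 ± 0.15 (adjusted p = 0.166), and by 0.41 (adjusted p = 0.0196) without wild-type green replicate 2. The list median was 0.40, and 0.19 after scaling.

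Of 11 flavonoid genes, 2 were higher, 1 lower and 8 not called, with a median of 0.09 (-0.18 after scaling). MYB75, a MYB activator of anthocyanin synthesis, was at 9.11, 7.26 and 8.27 FPKM in BES1-RNAi green, 0.17, 0.24 and 0.31 FPKM in BES1-RNAi dark, 1.38, 1.77 and 1.26 FPKM in wild-type green and 0.07, 0.00 and 0.00 FPKM in wild-type dark libraries. The green values were apart, and the dark values all lay under 1 FPKM. Its difference was 1.62 ± 0.19 (SE; limma, adjusted p = 2.39e-05) and was not called with a pseudocount of 0.1 (0.92, adjusted p = 0.147). F3H, flavanone 3-hydroxylase, averaged 209 ± 21.7 FPKM in BES1-RNAi green, 7.07 ± 1.47 FPKM in BES1-RNAi dark, 74.7 ± 2.94 FPKM in wild-type green and 0.643 ± 0.174 FPKM in wild-type dark libraries (SD, n = 3 each). Its difference was -0.82 ± 0.19 (SE; limma, adjusted p = 0.00584) but 0.33 (adjusted p = 0.0760) with a pseudocount of 5, and F3H overlaps AT3G51238 on the other strand. CHIL, a chalcone isomerase-like protein, was higher at 1.18 ± 0.32 (adjusted p = 0.0139) and was not called after scaling or with a pseudocount of 0.1.

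Few auxin genes were measured, 7 of 78 matched SAUR genes and 4 of 50 matched Aux/IAA and GH3 genes. Most of their calls were higher, but so were 62.6% of the calls over all genes. A departure from that share was not tested, and the calls are too few to show one. The higher calls were also of unlike kinds. SAUR6 had opposite light changes and SAUR14 a stronger rise, while SAUR25 and IAA19 had weaker falls with lower dark levels in BES1-RNAi. Of 7 SAUR genes, SAUR6, SAUR14 and SAUR25 were higher, SAUR35 was lower and 3 were not called, with a median of 0.59 (the same counts and 0.51 after scaling). SAUR35 differed by -1.38 ± 0.26 (SE; limma, adjusted p = 0.00148), with 6.39 ± 0.601 FPKM in BES1-RNAi green, 3.22 ± 0.409 FPKM in BES1-RNAi dark, 9.62 ± 2.49 FPKM in wild-type green and 1.29 ± 0.314 FPKM in wild-type dark libraries (SD, n = 3 each), and was called in every setting. Of 4 Aux/IAA and GH3 genes, IAA19, an auxin-induced repressor of auxin response, was higher and 3 were not called, with a median of 0.14. IAA19 was at 122, 123 and 112 FPKM in BES1-RNAi green, 239.5, 253 and 303 FPKM in BES1-RNAi dark, 95.5, 81.3 and 98.0 FPKM in wild-type green and 333, 359 and 342 FPKM in wild-type dark libraries. It fell in both genotypes, with lower dark and higher green values in BES1-RNAi, and the difference was 0.76 ± 0.15 (SE; limma, adjusted p = 0.00178), called in every setting. After scaling IAA28 was lower (-0.60, adjusted p = 0.0410).

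Of 5 brassinosteroid genes, PRE6, a small HLH protein that promotes elongation, was higher at 0.59 ± 0.13 (SE; limma, adjusted p = 0.00444), BEE3 and GATA2 were lower and 2 were not called, with a median of -0.18 (1 higher, 1 lower and -0.34 after scaling). PRE6 averaged 40.2 ± 2.34 FPKM in BES1-RNAi green, 103 ± 3.2 FPKM in BES1-RNAi dark, 38.6 ± 3.2 FPKM in wild-type green and 149.8 ± 14.5 FPKM in wild-type dark libraries (SD, n = 3 each). PRE6 was called in every setting. PRE6 and BEE3, both bHLH-family genes linked to brassinosteroid growth, fell in both genotypes and differed in opposite directions. Of 5 gibberellin genes, GA2OX1, which inactivates gibberellins, was lower at -0.87 ± 0.25 (adjusted p = 0.0164) but not with a pseudocount of 0.1 (-0.99, adjusted p = 0.0877), and 4 were not called, with a median of -0.51 (-0.56 after scaling). Of the apical hook and ethylene genes measured, HLS1, which maintains the hook, was lower at -0.60 ± 0.18 (adjusted p = 0.0188), and HB52 was not called (-0.77, adjusted p = 0.0581). Of 4 expansin and XTH genes, XTH15, a cell wall glucan-modifying enzyme, was lower at -0.60 ± 0.19 (adjusted p = 0.0267), and 3 were not called, with a median of 0.14 (-0.03 after scaling). XTH15 was not called without BES1-RNAi green replicate 3, BES1-RNAi dark replicate 1 or 3, wild-type green replicate 1 or 3, or wild-type dark replicate 2 (adjusted p from 0.0537 to 0.0834).

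Stress lists split as well. Of 7 heat shock genes, HSP90.1, HSP70 and HOP3 were higher, DREB2A was lower and 3 were not called, with a median of 0.27 (the same counts and 0.11 after scaling). As for levels in BES1-RNAi, 1 of the 7 genes was higher and 4 were lower in the dark. In green light 0 were higher and 2 lower (same fit). HOP3 was at 7.03, 7.36 and 6.63 FPKM in BES1-RNAi dark and 15.95, 14.01 and 14.01 FPKM in wild-type dark libraries. HSP90.1, a chaperone, was at 46.4, 53.6 and 45.8 FPKM in BES1-RNAi green, 15.0, 10.7 and 11.2 FPKM in BES1-RNAi dark, 97.2, 85.0 and 87.1 FPKM in wild-type green and 43.0, 42.7 and 38.8 FPKM in wild-type dark libraries. BES1-RNAi was lower in both conditions without overlap, and the difference was 0.82 ± 0.17 (SE; limma, adjusted p = 0.00248). HSP70 differed by 0.81 ± 0.19 (adjusted p = 0.00552) with lower dark values in BES1-RNAi, and its reads may be shared with near-identical copies. DREB2A, a drought and heat response factor, differed by -0.78 ± 0.21 (adjusted p = 0.0118). HSP90.1, HSP70, HOP3 and DREB2A were called in every setting.

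Of 5 cold and drought genes, GOLS3 and CBF3 were lower and 3 were not called, with a median of -0.44 (-1.0 after scaling). CBF3, an activator of cold-induced genes, was low throughout, at 1.01, 1.07 and 1.86 FPKM in BES1-RNAi green, 0.56, 0.18 and 0.11 FPKM in BES1-RNAi dark, 3.36, 3.1 and 2.79 FPKM in wild-type green and 0.55, 0.15 and 0.05 FPKM in wild-type dark libraries. Its green values were apart and its dark values overlapped. The difference was -0.88 ± 0.26 (SE; limma, adjusted p = 0.0194) and was not called with a pseudocount of 0.1 (adjusted p = 0.176) or without wild-type dark replicate 3 (adjusted p = 0.0544) or BES1-RNAi dark replicate 1 (adjusted p = 0.0562). The cold-induced genes KIN1 and KIN2 were not called, at -0.44 and -0.35. Of the carbon starvation genes measured BT2 was higher and DIN10 not called (0.50, adjusted p = 0.0920). None of the 3 defence genes RPP4, THI2.2 and WRKY70 was called (limma, 0 at an unadjusted p under 0.05, adjusted p from 0.561 to 0.714, median 0.21 and -0.17 after scaling), nor was JAZ9, the jasmonate gene measured (0.23, adjusted p = 0.436). No plastid- or mitochondrion-encoded gene was in the tables of both genotypes.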

How the data were processed

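RNA-seq values of 12 Arabidopsis seedling libraries, 3 in each of 4 groups taken from the labels, were analysed. The authors deposited FPKM per gene and library to 2 decimals, for a selection of genes per genotype. Per the submitters' processing notes, the tools included DESeq 1.18.0, HISAT2 2.2.1.0, Trimmomatic 0.36, Bowtie2, TopHat and Cufflinks and the build was TAIR10, with no role or order. Strand use and how multiply matching reads were counted remain not given in the sources used here, and 16 of the 61 named genes overlap another annotated gene, 14 of them on the other strand (AT1G08477, AT5G42760, AT5G57760, AT3G02910, AFR, PKS1, BBX25, LNK3, PSY, F3H, DFL2, XTH15, CBF3 and DREB2A) and SAUR6 and ASG4 on the same strand, which makes their values uncertain. Depth per library is unknown, so a low FPKM has an unstated counting error.

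Values were converted to log2(FPKM + 1), a scale that understates changes of low genes. Where it understates the change more in 1 genotype than in the other, the difference can come out too large or too small. The values were fitted with limma 3.58.1 (R 4.3.3, intensity trend, no scaling) as a model of 4 group means over the 633 shared genes. P-values are two-sided, adjusted by the Benjamini-Hochberg method over 633 genes, with a threshold of 0.05. FPKM are not counts, so no count model was used. On simulated data 33.3% of genes with an interaction of 0.5, 86.8% at 1 and 100% at 2 were recovered, with 2 false calls in 433 unchanged genes. The simulation drew independent noise for each gene around the group means, with no shift common to a library or group. Its false calls therefore do not cover errors from how libraries are scaled. Named genes were, per direction, the 12 largest differences among called genes with a group mean of at least 5 FPKM, all genes with opposite light changes, the 3 lowest adjusted p per class and the 3 lowest p of each list with at least 3 measured members. Other list members named were chosen after their values were seen. The comparison and the gene lists were chosen with earlier results of these data known. List members were matched by RefSeq symbol, then by a synonym held by 1 gene. This left FHY1, CH1 and SEP2, among others, outside their lists, so the list counts are not complete. Alternatives were pseudocounts of 0.1 and 5, a minimum mean of 1 FPKM, scaling by the median ratio, no trend, a replicate block and leaving out each library. Promoter windows came from RefSeq TAIR10.1, to which all 633 loci matched by tag.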

Additional observations from a re-analysis of the deposited data

Results flagged for a closer look

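SAUR6 and PHI-1 are flagged because the light changes of the genotypes differed by the test of the difference itself and ran in opposite directions. The difference of light change, BES1-RNAi minus wild type, was 2.69 ± 0.20 (SE; limma, adjusted p = 3.24e-07) for SAUR6. Its light change was positive in BES1-RNAi and negative in wild type for every pairing of a green with a dark library. The difference was 2.15 ± 0.40 (SE; limma, adjusted p = 0.00142) for PHI-1, whose BES1-RNAi values were all under 5 FPKM. With 3 libraries per group, single libraries were not examined as outliers.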

How the results depend on the processing

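The count of higher genes, 112, became 176 with a pseudocount of 5 and 60 after scaling, and stronger rises, 95, became 157 with a pseudocount of 5 and 20 after scaling. Genes with opposite directions numbered 48 after scaling, where a light change is read against the median gene. The cause of the moves with the pseudocount was not tested. Leaving out 1 library gave 88 to 121 higher and 50 to 70 lower genes, 75 to 104 stronger and 34 to 49 weaker rises, 13 to 21 stronger and 11 to 17 weaker falls, and 2 to 2 with opposite directions. The 13 stronger falls came without BES1-RNAi dark replicate 1. Without wild-type green replicate 2, 114 genes were higher and 70 lower. The difference of F3H was reversed at 0.33 with a pseudocount of 5. With the replicate number as a block, 110 genes were higher and 66 lower, 169 of them shared with the fit without it, and no call of the 61 named genes changed. The numbers did not pair the libraries, since deviations of same-numbered libraries correlated at -0.17 to 0.111 in 18 pairs and 3 of 12 libraries correlated best with their own number. Of the named genes, 5 lost their call with a pseudocount of 0.1, 5 with 5 (F3H among them), 3 after scaling and 2 without the trend. Unknown depth limits all genes near 0 FPKM.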
